A study of Mus musculus with 6 samples.

Results

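Described here are 58 genes of the kinetochore, the spindle checkpoint and the control of mitosis, in the mouse Leydig cell line TM3 after treatment with the kinase inhibitor pyrotinib. They were taken by gene name from the deposited table of 54532 genes. Each name matched 1 gene, and all 58 had enough reads to be tested. The 3 pyrotinib libraries come from TM3 cells given 100 nM pyrotinib for 48 h. The 3 DMSO libraries come from TM3 cells given the solvent dimethyl sulfoxide at 0.1‰ over the same time. All 6 libraries are poly(A) RNA of the same cell line, read as 150 bp pairs, with 15005737 to 16171030 counts each. TM3 derives from immature mouse Leydig cells, the testosterone-producing cells of the testis. Pyrotinib irreversibly blocks the ErbB receptor kinases EGFR, HER2 and HER4, and the series asks how it harms the male reproductive system. Whether the replicates were separate cultures is not in the labels, and if they were not, the p-values cover technical spread alone.

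TM3 cells showed few mature Leydig markers. Of 9 such genes 2 had enough reads to be tested, and Lhcgr and Hsd3b6 had none. Summed over the 9, the pyrotinib libraries held 100 to 121 reads and the DMSO libraries 69 to 86. Markers of macrophages gave 48 to 65 reads with pyrotinib and 55 to 100 with DMSO, with C1qa at 0. Endothelial markers gave 32 to 51 reads with pyrotinib and 21 to 34 with DMSO, with Kdr at 0. Germ cell markers, which bear on mitotic genes because germ cells divide, gave 156 to 290 reads with pyrotinib and 168 to 258 with DMSO, with Dazl, Tnp1 and Kit at 0. Sertoli markers gave 2315 to 2672 reads with pyrotinib and 1722 to 1869 with DMSO, nearly all from Wt1, with Fshr, Rhox5, Cldn11 and Aard at 0. Wt1 alone of the Sertoli markers had enough reads to be tested. It was higher with pyrotinib (log2 fold change 0.43, edgeR adjusted p under 0.05), as were 13.2% of all tested genes. Peritubular markers gave 1178 to 1297 reads with pyrotinib and 1231 to 1341 with DMSO. The part of these lists in the results was not tested.

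To divide, a cell must switch on the kinase CDK1, attach each chromosome to the spindle through its kinetochore, and hold the sister chromatids together until every kinetochore is attached. The spindle checkpoint delays separation until then by restraining the anaphase-promoting complex (APC/C), the ubiquitin ligase that marks cyclin B and securin for destruction. Most of these genes are transcribed in G2 and M phase, so their level in a culture follows the share of cells in those phases as well as the level in each cell. In RNA from whole cultures, fewer cells in a phase and less RNA per cell cannot be told apart.

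The mitotic regulators fell. With pyrotinib 42 of the 58 were lower, 0 were higher and 16 did not pass (edgeR quasi-likelihood test, Benjamini-Hochberg adjusted over the 14125 genes tested, threshold 0.05). Among all tested genes 12.8% were lower, 13.2% higher and 26% either. At an unadjusted p under 0.05 in edgeR 48 members were lower and 0 higher, against 2671 lower and 2746 higher of all 14125 tested genes. At the adjusted threshold DESeq2 called 42 members lower and 0 higher, and limma-voom 43 and 0. The members' median log2 fold change was -0.54, a 1.45-fold fall, against 0.0022 for all tested genes. Falls among the 42 ran from 1.24-fold to 2.30-fold; 27 members had a fold of at least 1.5 and 7 of at least 2. Every pyrotinib library lay below every DMSO library for 49 of the 58, where 20.3% of all tested genes were so ordered. By summed level the 58 genes held 2201, 1878 and 2138 CPM (each gene's count relative to the TMM-scaled library total) in the pyrotinib replicates numbered 1 to 3, against 2911, 3219 and 2974 CPM in DMSO. That is 2072 ± 171 CPM with pyrotinib and 3035 ± 163 CPM with DMSO (SD, n = 3 each), and the groups do not overlap.

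**Figure D1:**
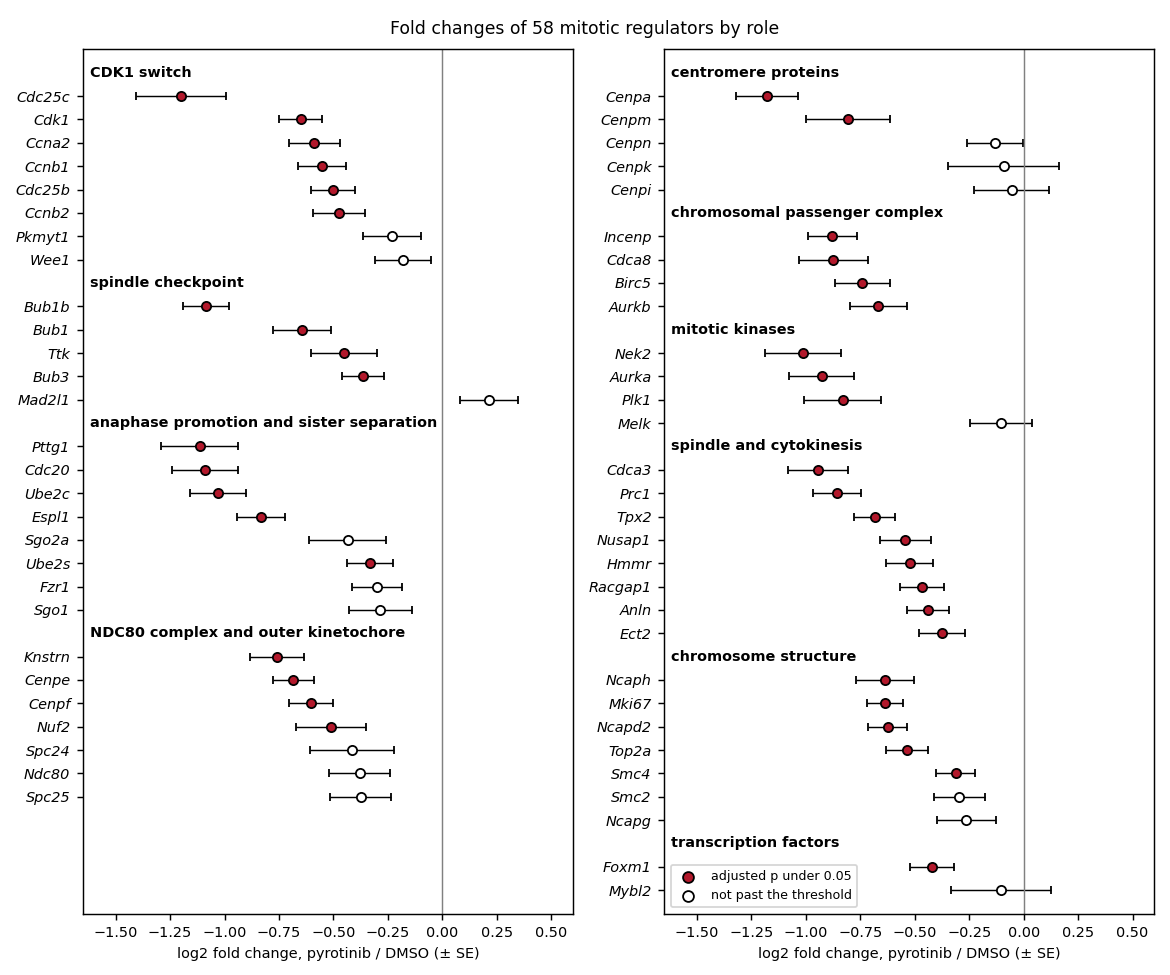
Log2 fold change (pyrotinib over DMSO, horizontal axis) of each of the 58 genes, grouped by role, with its standard error; filled points pass an adjusted p of 0.05. All points but that of Mad2l1 lie left of 0, and the chromosomal passenger complex and the spindle and cytokinesis genes are filled throughout.

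Libraries within a group were not alike. Relative to the DMSO mean, the median log2 ratio over the members was -0.44, -0.71 and -0.52 in the pyrotinib libraries (in replicate order), against -0.05, 0.08 and -0.04 in the DMSO libraries. Pyrotinib replicate 2 was the lowest of its group for 35 members, and DMSO replicate 2 the highest of its group for 37. Pyrotinib replicates 1 and 3 also carried a trend with transcript GC content over all genes, with slopes of -0.23 and -0.27 log2 units per 10 percentage points, against -0.0011 in pyrotinib replicate 2 and -0.01, 0.03 and -0.02 in DMSO. The members' median GC content was 46.7%, below the 49.2% of all tested genes. After the GC trend was removed from each library, 48 members were lower and 0 higher, where 14.5% of all tested genes were lower, and the median was -0.66. With pyrotinib replicate 2 alone against DMSO, where the spread comes from the DMSO libraries only and the lone library is assumed to vary like them, 41 of 58 were lower and 0 higher, where 3.44% of all tested genes were lower, and the median was -0.71. The part of the GC trend in the members' fall was not tested beyond these values.

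**Figure D2:**
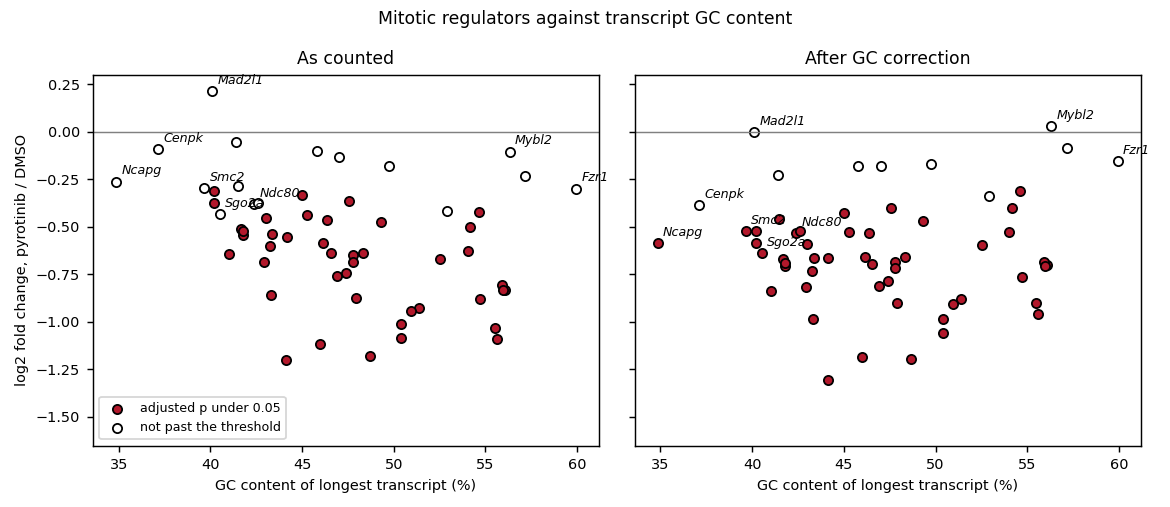
Log2 fold change of the 58 genes against the GC content of the longest transcript of each, before (left) and after (right) removal of the GC trend from every library; filled points pass an adjusted p of 0.05. Genes of low GC content such as Ncapg, Smc2 and Ndc80 move down and become filled, while Mad2l1, Fzr1, Mybl2 and Cenpk remain unfilled.

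Promoters of late cell cycle genes are known for a CHR element, TTTGAA, bound by the MuvB core of the DREAM and MYBL2-MuvB complexes, and for CCAAT boxes bound by NF-Y. RefSeq promoters (GRCm38.p6, 250 bases before to 50 after the start) were found for 48 of the 58 genes, as 54 windows. The 6 below show members that fell by about 2-fold or by 1.57-fold (Cdk1), and Melk, which did not pass, with every TTTGAA and CCAAT on either strand in capitals (the reverse strand reads TTCAAA and ATTGG). Their windows are chr4:118437294-118437593 (minus strand), chr2:164769679-164769978 (plus), chr10:69352863-69353162 (minus), chr5:30666636-30666935 (plus), chr2:118597961-118598260 (plus) and chr4:44300667-44300966 (plus).
Cdc20: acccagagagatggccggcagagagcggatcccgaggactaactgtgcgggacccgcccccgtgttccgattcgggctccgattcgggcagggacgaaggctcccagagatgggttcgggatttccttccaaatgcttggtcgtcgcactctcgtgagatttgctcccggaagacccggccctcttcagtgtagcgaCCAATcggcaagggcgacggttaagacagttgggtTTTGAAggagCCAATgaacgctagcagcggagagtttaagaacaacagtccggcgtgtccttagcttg
Ube2c: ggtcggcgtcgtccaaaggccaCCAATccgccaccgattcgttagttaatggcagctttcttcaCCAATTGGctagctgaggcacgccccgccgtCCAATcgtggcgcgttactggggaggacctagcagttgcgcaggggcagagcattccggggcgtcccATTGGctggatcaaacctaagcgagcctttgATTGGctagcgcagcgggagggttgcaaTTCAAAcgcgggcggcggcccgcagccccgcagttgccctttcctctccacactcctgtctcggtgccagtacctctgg
Cdk1: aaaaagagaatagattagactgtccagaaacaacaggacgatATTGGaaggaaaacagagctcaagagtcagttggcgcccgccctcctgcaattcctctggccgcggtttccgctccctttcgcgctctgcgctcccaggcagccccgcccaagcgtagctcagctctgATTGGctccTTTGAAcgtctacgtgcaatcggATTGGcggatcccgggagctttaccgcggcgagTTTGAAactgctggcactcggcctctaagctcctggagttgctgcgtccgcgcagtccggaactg
Cenpa: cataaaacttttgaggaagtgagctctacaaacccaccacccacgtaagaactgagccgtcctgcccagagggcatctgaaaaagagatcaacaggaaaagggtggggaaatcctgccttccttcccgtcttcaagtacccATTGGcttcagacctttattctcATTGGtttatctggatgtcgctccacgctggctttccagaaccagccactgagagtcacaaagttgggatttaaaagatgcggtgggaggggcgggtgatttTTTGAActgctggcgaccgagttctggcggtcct
Bub1b: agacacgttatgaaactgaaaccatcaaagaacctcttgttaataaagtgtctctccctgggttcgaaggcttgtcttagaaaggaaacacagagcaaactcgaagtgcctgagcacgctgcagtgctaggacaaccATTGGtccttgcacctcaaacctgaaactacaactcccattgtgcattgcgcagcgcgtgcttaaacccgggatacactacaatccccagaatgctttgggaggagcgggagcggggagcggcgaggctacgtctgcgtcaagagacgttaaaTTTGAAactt
Melk: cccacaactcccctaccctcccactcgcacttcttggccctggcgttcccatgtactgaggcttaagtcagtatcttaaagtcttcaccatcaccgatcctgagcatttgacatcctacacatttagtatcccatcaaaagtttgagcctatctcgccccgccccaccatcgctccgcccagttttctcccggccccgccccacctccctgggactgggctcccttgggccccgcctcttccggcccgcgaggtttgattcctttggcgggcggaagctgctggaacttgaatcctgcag
Cdc20, the APC/C activator, has its TTTGAA 18 bases before the start, between CCAAT boxes that begin 53 and 8 bases before it. Ube2c, the ubiquitin-conjugating enzyme of the APC/C, has the element 29 bases before the start and 6 CCAAT matches, of which a pair overlap. Melk has neither motif in this window, but of 13 members that did not pass 5 hold TTTGAA and 9 hold CCAAT. Of the members that fell at least 2-fold, Pttg1 (neither motif) and Nek2 (CCAAT, no TTTGAA) also have windows, which are not shown.

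The CHR letters were more frequent among members that fell. A match stood in a window of 22 of 35 members that fell (62.9%), of 5 of 13 members that did not pass (38.5%), and of 14.2% of all 9778 tested genes with a window. Over the whole promoter table it stood in 17.9% of 32851 windows. CCAAT occurred in 77.1% of members that fell, 69.2% of those that did not pass and 43.3% of tested genes, and in 37.4% of all windows. An E2F-like site, GCGGGAA on either strand, showed the other order; its end base can be shared with a CCAAT match. It occurred in 1 of 35 members that fell, in 4 of 13 that did not pass and in 11 of 25 genes of a list of G1/S and replication genes, against 9.9% of tested genes and 4.6% of all windows. The single member that fell and held it was Cenpm. Of the 4 that did not pass, Sgo2a and Ncapg passed as lower after the GC correction. So did Spc25, Smc2, Ncapg and Ndc80, of the 5 with the CHR letters. Sgo2a and Cenpk have more than 1 window each, which gives a match more room. Among members that fell, Pttg1, Birc5, Knstrn, Nusap1, Ncaph, Nuf2 and Ube2s had neither the CHR letters nor CCAAT in this window. These shares describe letters in a fixed window and carry no test.

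**Figure D3:**
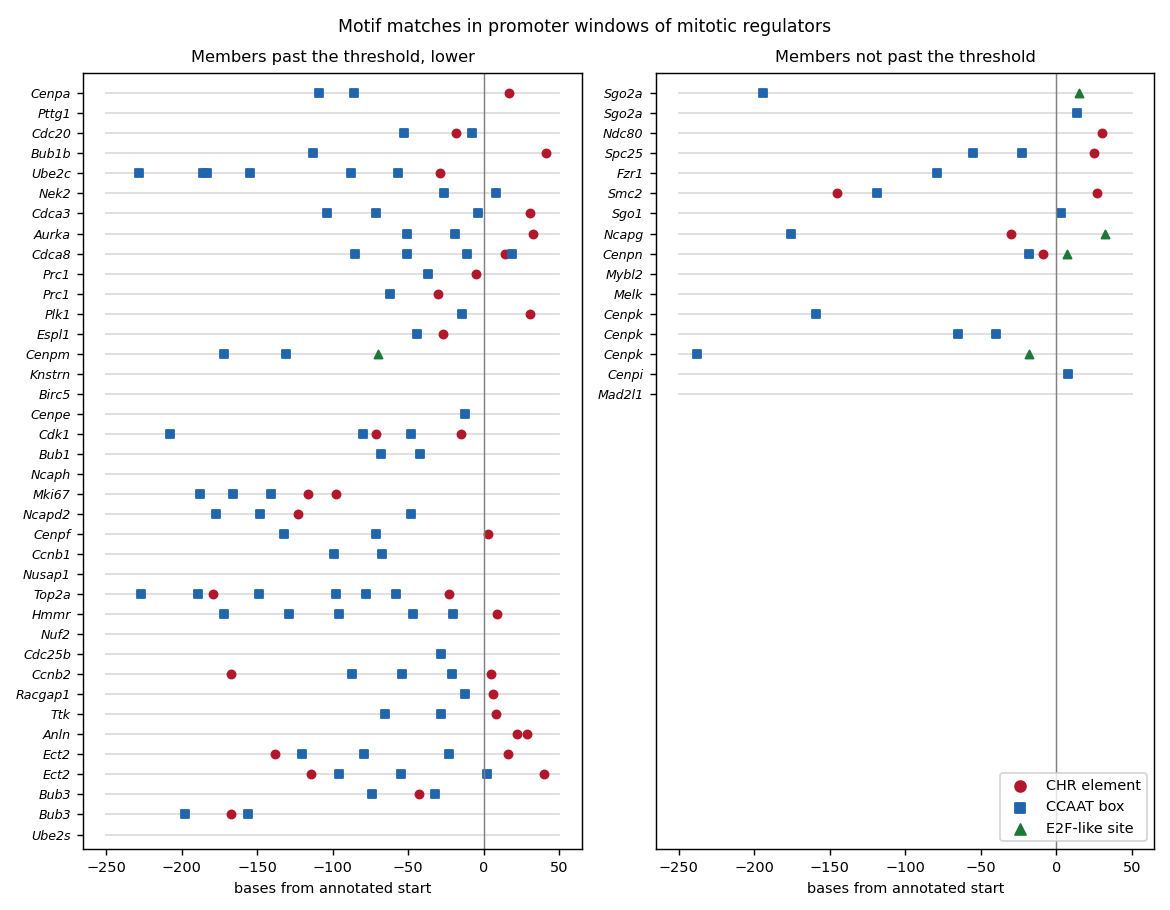
Position of each motif match in the promoter windows, in bases from the annotated start (horizontal axis), for members that fell (left, strongest fall on top) and members that did not pass (right); genes with several starts have a row for each, so overlapping windows (Prc1, Ect2, Bub3) repeat the same sites. E2F-like sites appear in 1 window on the left and 4 on the right.

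CDK1 and its cyclins drive entry into mitosis, the CDC25 phosphatases activate CDK1, and the kinases WEE1 and PKMYT1 hold it inactive. Of these 8 genes 6 fell and 2 did not pass, and both that did not pass are the inhibitory kinases. Whether the changes of these 2 differ from those of the other 6 was not tested. Cdk1 (ENSMUSG00000019942, chromosome 10, 69335146 to 69352938, in mm10 as are all gene positions here) had 67.3, 57.9 and 57.9 CPM in the 3 pyrotinib libraries, against 88.8, 109 and 90.0 CPM in the 3 DMSO libraries. All 3 pyrotinib libraries were below all DMSO libraries, with DMSO replicate 2 highest (log2 fold change -0.65 ± 0.10 SE, adjusted p = 0.0002). Cdc25c (ENSMUSG00000044201, chromosome 18, 34732997 to 34751533) showed the largest fall of all members, 2.30-fold, with 2.82, 3.13 and 3.83 CPM with pyrotinib against 7.40, 7.81 and 7.30 CPM with DMSO (log2 fold change -1.20 ± 0.21 SE, adjusted p = 0.00051). Its 506 reads over the 6 libraries make it among the less precisely measured members. Ccna2, Ccnb1, Ccnb2 and Cdc25b fell by 1.39-fold to 1.5-fold (adjusted p 0.0015 to 0.0068). For Wee1 the levels were 18.1, 20.8 and 22.9 CPM with pyrotinib and 21.0, 26.5 and 22.5 CPM with DMSO, which overlap (log2 fold change -0.18, adjusted p = 0.32). Pkmyt1 gave 13.8, 11.9 and 12.2 CPM with pyrotinib against 14.9, 15.3 and 14.3 CPM with DMSO; these do not overlap, but the difference did not pass (log2 fold change -0.23, adjusted p = 0.22). Ccnb1 and Ccnb2 have pseudogenes in the table, with 76 and 10 reads in all.

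The checkpoint kinases fell and the MAD2 gene did not. Bub1b (ENSMUSG00000040084, chromosome 2, 118598211 to 118641591) encodes BUBR1, a part of the mitotic checkpoint complex that blocks CDC20. It had 25.3, 25.1 and 24.3 CPM with pyrotinib, nearly the same in all 3 libraries, against 47.4, 59.5 and 51.8 CPM with DMSO (log2 fold change -1.09 ± 0.11 SE, adjusted p = 3.3e-06), the smallest adjusted p among the members. Its paralog Bub1 (ENSMUSG00000027379, chromosome 2, 127801122 to 127831865), the kinase that gathers checkpoint proteins at kinetochores, had 23.4, 16.7 and 23.1 CPM with pyrotinib against 30.0, 35.1 and 33.4 CPM with DMSO, lowest in pyrotinib replicate 2 (log2 fold change -0.64 ± 0.13 SE, adjusted p = 0.0019). Bub3, which binds both kinases to the kinetochore, and Ttk, the MPS1 kinase that starts the signal, fell 1.29-fold and 1.37-fold. Without DMSO replicate 3 neither passed, and Ttk also did not without DMSO replicate 2 or pyrotinib replicate 2 (largest adjusted p 0.073 for Bub3 and 0.13 for Ttk). Mad2l1, whose product MAD2 binds CDC20, was the single member with a positive log2 fold change. It gave 25.8, 18.9 and 25.1 CPM with pyrotinib and 18.8, 22.1 and 19.2 CPM with DMSO, with pyrotinib replicate 2 inside the DMSO range (log2 fold change 0.21, adjusted p = 0.26). After the GC correction its log2 fold change was -0.0015.

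Of 8 genes that act in anaphase promotion and sister separation, 5 fell and 3 did not pass. Ube2c (ENSMUSG00000001403, chromosome 2, 164769898 to 164778822) had 33.3, 22.9 and 26.3 CPM with pyrotinib, against 50.3, 62.3 and 55.5 CPM with DMSO (log2 fold change -1.03 ± 0.13 SE, adjusted p = 3.4e-05). Espl1 (ENSMUSG00000058290, chromosome 15, 102296266 to 102324357), the separase that cuts cohesin, had 23.2, 26.4 and 25.3 CPM with pyrotinib against 47.3, 46.8 and 39.4 CPM with DMSO (log2 fold change -0.83 ± 0.11 SE, adjusted p = 6e-05). For each of these genes the lowest DMSO library exceeded the highest pyrotinib library. Pttg1, the securin that inhibits separase, gave 6.27, 11.1 and 9.80 CPM with pyrotinib and 17.9, 22.7 and 18.3 CPM with DMSO, a 2.17-fold fall (adjusted p = 0.00028). Ube2s, which extends the chains that UBE2C starts, fell 1.26-fold (adjusted p = 0.025), and did not pass without DMSO replicate 2, DMSO replicate 3 or pyrotinib replicate 1. In Ube2s 3.56% of exon bases are shared with Rpl28 on the opposite strand, which had 34184 reads to its 3175.

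The APC/C coactivators gave different values. Cdc20, which activates the APC/C in metaphase, had 14.5, 11.8 and 12.2 CPM with pyrotinib, against 23.5, 34.2 and 24.3 CPM with DMSO, where replicate 2 was highest (log2 fold change -1.09 ± 0.15 SE, adjusted p = 8.4e-05). Fzr1, which encodes CDH1 and takes over from late mitosis into G1, had 42.8, 54.4 and 38.8 CPM with pyrotinib against 59.8, 54.8 and 52.9 CPM with DMSO, so that pyrotinib replicate 2 lay among the DMSO libraries (log2 fold change -0.30 ± 0.11 SE, adjusted p = 0.062). With a transcript of 59.9% GC, the highest of the members, Fzr1 had a log2 fold change of -0.15 after the GC correction and -0.03 in pyrotinib replicate 2 alone. The difference between the changes of Cdc20 and Fzr1 was not tested. Sgo1 and Sgo2a encode the shugoshins that shield centromeric cohesin. Sgo1 gave 14.0, 11.1 and 15.0 CPM with pyrotinib and 17.5, 16.4 and 14.8 CPM with DMSO, which overlap. Sgo2a gave 8.38, 6.14 and 9.99 CPM with pyrotinib and 10.7, 11.5 and 10.9 CPM with DMSO, which do not. Neither passed (adjusted p = 0.15 and 0.078), and both did after the GC correction (log2 fold changes -0.46 and -0.64, adjusted p = 0.011 and 0.0055). In Sgo2a 35.0% of exon bases are shared with Kctd18 on the opposite strand, which had 2327 reads to its 905.

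At the outer kinetochore, Knstrn, Cenpe, Cenpf and Nuf2 fell, and Ndc80, Spc24 and Spc25 did not pass. Whether the changes of these genes differ was not tested. Knstrn (ENSMUSG00000027331, chromosome 2, 118814003 to 118853957), a kinastrin that helps align chromosomes, had 13.5, 16.2 and 17.0 CPM with pyrotinib and 25.3, 28.0 and 25.6 CPM with DMSO (log2 fold change -0.76 ± 0.12 SE, adjusted p = 0.00035). Cenpe (ENSMUSG00000045328, chromosome 3, 135212537 to 135273611), a kinesin that carries chromosomes to the spindle equator, had 44.3, 40.4 and 46.8 CPM with pyrotinib against 72.5, 72.7 and 66.2 CPM with DMSO (log2 fold change -0.69 ± 0.09 SE, adjusted p = 8e-05). Cenpf, which binds microtubules at the kinetochore, fell 1.52-fold. In all 7 genes of this role the pyrotinib libraries lay below the DMSO libraries. That order held for 20.3% of all tested genes, and 3 of the 7 did not pass.

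The NDC80 complex is the rod of 4 subunits that grips the microtubule end: Ndc80 and Nuf2 form the microtubule-binding side and Spc24 and Spc25 the end held by the kinetochore. Ndc80 gave 21.8, 15.3 and 23.1 CPM with pyrotinib and 27.6, 25.5 and 25.2 CPM with DMSO (log2 fold change -0.38, adjusted p = 0.052). Spc25 gave 14.5, 11.1 and 14.7 CPM with pyrotinib against 17.3, 18.5 and 16.5 CPM with DMSO (log2 fold change -0.37, adjusted p = 0.057). Spc24 gave 4.41, 5.53 and 5.09 CPM with pyrotinib against 7.06, 6.91 and 6.11 CPM with DMSO (log2 fold change -0.42, adjusted p = 0.12). In all 3 the pyrotinib libraries lay below the DMSO libraries, as they did in 20.3% of all tested genes. Nuf2 alone of the 4 passed, with 7.74, 8.30 and 6.91 CPM with pyrotinib against 11.3, 9.86 and 11.5 CPM with DMSO (log2 fold change -0.51, adjusted p = 0.025), but did not pass when replicate 1 or 3 of either group was left out. The log2 fold changes of the 4 lay between -0.51 and -0.37, each with a standard error of 0.14 to 0.19, so that Nuf2 did not stand apart from the other subunits beyond their errors. After the GC correction Ndc80, Nuf2 and Spc25 passed (log2 fold changes -0.53, -0.67 and -0.52) and Spc24 did not (-0.34, adjusted p = 0.18). Per length, the subunits stood at 3.14 ± 0.661 FPKM for Ndc80, 1.22 ± 0.110 for Nuf2, 1.97 ± 0.215 for Spc24 and 4.27 ± 0.663 for Spc25 with pyrotinib. With DMSO they stood at 4.13 ± 0.207, 1.77 ± 0.146, 2.67 ± 0.203 and 5.61 ± 0.335 FPKM in the same order (SD, n = 3 each).

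Among 5 centromere proteins, 2 fell and 3 did not pass. Cenpa (ENSMUSG00000029177, chromosome 5, 30666777 to 30674830), the histone H3 variant that marks the centromere, had 14.3, 16.2 and 17.5 CPM with pyrotinib, against 28.4, 43.5 and 36.9 CPM with DMSO (log2 fold change -1.18 ± 0.14 SE, adjusted p = 3e-05). Its lowest DMSO library, replicate 1, was still above every pyrotinib library. Cenpm (ENSMUSG00000068101, chromosome 15, 82233779 to 82244748), of the inner kinetochore network, had 4.35, 5.22 and 3.83 CPM with pyrotinib against 7.40, 7.87 and 8.23 CPM with DMSO (log2 fold change -0.81 ± 0.19 SE, adjusted p = 0.0053). The 3 others, also of that network, gave small differences. Cenpi had 7.29, 6.82 and 7.22 CPM with pyrotinib against 7.53, 6.85 and 7.80 CPM with DMSO (adjusted p = 0.84). Cenpn had 13.8, 13.3 and 13.1 CPM with pyrotinib against 15.3, 14.3 and 14.5 CPM with DMSO (adjusted p = 0.49). Cenpk, a member with few reads (459 in all), had 5.69, 3.01 and 5.47 CPM with pyrotinib against 5.93, 5.38 and 3.81 CPM with DMSO (adjusted p = 0.82). Their log2 fold changes were -0.06, -0.13 and -0.09, and -0.23, -0.18 and -0.39 after the GC correction, none of which passed.

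All 4 genes of the chromosomal passenger complex, which corrects faulty attachments and guides cytokinesis, fell. Incenp (ENSMUSG00000024660, chromosome 19, 9872297 to 9899533), its scaffold, had 27.1, 25.4 and 25.9 CPM with pyrotinib, against 43.5, 56.0 and 44.7 CPM with DMSO (log2 fold change -0.88 ± 0.11 SE, adjusted p = 5e-05). Birc5 (ENSMUSG00000017716, chromosome 11, 117849251 to 117855743), which encodes survivin, had 16.6, 14.3 and 16.8 CPM with pyrotinib against 23.5, 29.2 and 27.3 CPM with DMSO (log2 fold change -0.74 ± 0.13 SE, adjusted p = 0.00047). Aurkb, the kinase of the complex, and Cdca8, which encodes borealin, fell 1.59-fold and 1.83-fold. For all 4 every pyrotinib library lay below every DMSO library, an order found in 20.3% of all tested genes. Each of the 4 passed in all 6 fits without 1 library. Their median fall was 1.75-fold.

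**Figure D4:**
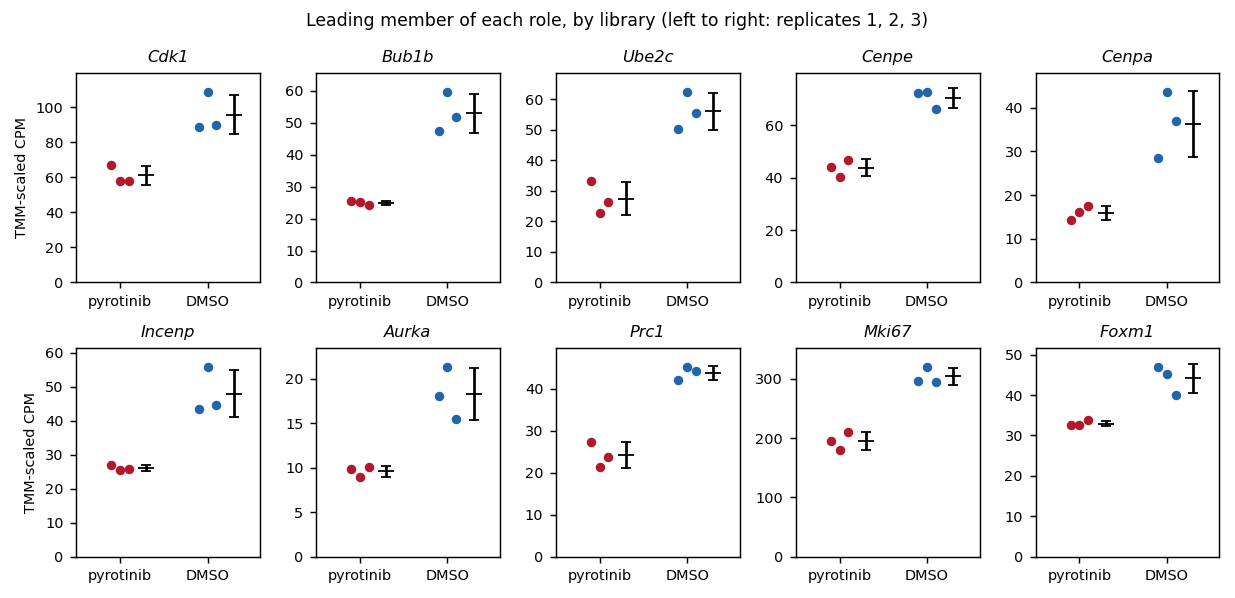
TMM-scaled CPM in each library for the member of each role with the smallest adjusted p; points are libraries, and the bar beside them is the mean ± SD (n = 3). In all 10 panels the 3 pyrotinib libraries lie below the 3 DMSO libraries. The genes were picked by adjusted p from these same libraries, and 20.3% of all tested genes were so ordered.

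Of the other mitotic kinases 3 fell and Melk did not. Aurka (ENSMUSG00000027496, chromosome 2, 172356190 to 172370535), the centrosome and spindle kinase, had 9.92, 8.91 and 10.1 CPM with pyrotinib, against 18.1, 21.4 and 15.5 CPM with DMSO (log2 fold change -0.93 ± 0.15 SE, adjusted p = 0.00029). Nek2 (ENSMUSG00000026622, chromosome 1, 191821444 to 191833050), which separates the centrosomes, had 7.17, 6.57 and 6.53 CPM with pyrotinib against 11.4, 17.1 and 12.4 CPM with DMSO (log2 fold change -1.01 ± 0.17 SE, adjusted p = 0.00054). DMSO replicate 2 was highest for both. Plk1, the polo-like kinase that acts from mitotic entry to exit, fell 1.78-fold, with 7.68, 6.94 and 4.90 CPM with pyrotinib against 11.2, 11.6 and 12.0 CPM with DMSO. Melk, a kinase of the AMPK-related family, overlapped between groups at 14.3, 11.9 and 12.0 CPM with pyrotinib and 12.6, 14.3 and 14.1 CPM with DMSO (log2 fold change -0.10, adjusted p = 0.62).

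Every one of the 8 spindle and cytokinesis genes fell, and all 8 passed after the GC correction too. Tpx2 (ENSMUSG00000027469, chromosome 2, 152847964 to 152895321), which activates Aurora A on the spindle, had 47.0, 39.8 and 45.8 CPM with pyrotinib, against 67.6, 73.9 and 71.6 CPM with DMSO (log2 fold change -0.68 ± 0.10 SE, adjusted p = 8.7e-05). Prc1 (ENSMUSG00000038943, chromosome 7, 80294450 to 80316259), which bundles the antiparallel microtubules of the midzone, had 27.4, 21.3 and 23.8 CPM with pyrotinib against 42.0, 45.2 and 44.2 CPM with DMSO (log2 fold change -0.86 ± 0.11 SE, adjusted p = 5.1e-05); 11.1% of its exon bases are shared with Rccd1 on the opposite strand, which had 260 reads. The remaining 6 fell by 1.30-fold to 1.92-fold. The largest of these falls was that of Cdca3, a regulator of mitotic entry, and the smallest that of Ect2, which turns on RhoA at the cleavage furrow. Ect2 did not pass without DMSO replicate 2 or 3 (largest adjusted p 0.057). Between them stood the RhoA regulator Racgap1, the furrow scaffold Anln, and the microtubule-binding Nusap1 and Hmmr.

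Of the 7 genes of mitotic chromosome structure 5 fell. Mki67 (ENSMUSG00000031004, chromosome 7, 135689784 to 135716361), the proliferation marker that coats mitotic chromosomes, had 196, 180.5 and 211 CPM with pyrotinib, against 297, 321 and 295 CPM with DMSO (log2 fold change -0.64 ± 0.08 SE, adjusted p = 6e-05). Condensin I, the ring that compacts chromosomes, is built from 5 proteins, all of them members. Ncapd2 (ENSMUSG00000038252, chromosome 6, 125168007 to 125191701) had 53.4, 52.2 and 50.3 CPM with pyrotinib against 73.5, 81.8 and 85.2 CPM with DMSO (log2 fold change -0.63 ± 0.09 SE, adjusted p = 0.00012), and Ncaph fell 1.56-fold. Smc4 and Smc2 are the subunits shared with condensin II. Smc4 fell 1.24-fold (adjusted p = 0.017) and did not pass when DMSO replicate 2, DMSO replicate 3 or pyrotinib replicate 3 was left out. Smc2 gave 54.6, 39.4 and 54.5 CPM with pyrotinib against 59.2, 65.5 and 57.5 CPM with DMSO (log2 fold change -0.30, adjusted p = 0.068). Ncapg overlapped between groups, at 26.4, 19.2 and 23.9 CPM with pyrotinib and 23.7, 29.7 and 29.9 CPM with DMSO (log2 fold change -0.26, adjusted p = 0.16). Ncapg and Smc2 have the transcript GC contents 34.8% and 39.7%, and both passed after the GC correction, with log2 fold changes of -0.59 and -0.52; those of Ncapd2, Ncaph and Smc4 were then -0.53, -0.66 and -0.52. Ncapg also shares 13.4% of its exon bases with Lcorl on the opposite strand. Top2a, the topoisomerase that untangles sister chromatids, fell 1.45-fold.

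Foxm1 and Mybl2 encode transcription factors that switch on late cell cycle genes. Foxm1 (ENSMUSG00000001517, chromosome 6, 128362967 to 128376146) had 32.6, 32.5 and 33.8 CPM with pyrotinib, against 47.0, 45.2 and 40.1 CPM with DMSO (log2 fold change -0.42 ± 0.10 SE, adjusted p = 0.0057). Mybl2 (ENSMUSG00000017861, chromosome 2, 163054687 to 163084688), with 404 reads in all the fewest of any member, had 4.73, 4.18 and 3.45 CPM with pyrotinib against 3.93, 5.06 and 4.30 CPM with DMSO, which overlap (log2 fold change -0.10 ± 0.23 SE, adjusted p = 0.77). Whether their changes differ was not tested.

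The members covered a wide range of levels. Per length, with DMSO, Top2a was highest at 58.1 ± 4.07 FPKM, followed by Smc4 (38.6 ± 1.48) and Mki67 (31.1 ± 1.51), and Mybl2 and Cenpk were lowest at 0.983 ± 0.129 and 0.989 ± 0.216 FPKM (SD, n = 3). With pyrotinib these 5 stood at 39.5 ± 5.61, 30.7 ± 3.70, 19.7 ± 1.56, 0.902 ± 0.142 and 0.916 ± 0.291 FPKM, in the same order of genes. Mybl2 and Cenpk differ by less than their SD in either group. The 42 genes that fell had a median DMSO level of 8.88 FPKM and a median transcript GC content of 47.5%. The 16 that did not pass had 4.16 FPKM and 42.5%. After the GC correction 6 of the 16 passed as lower: Sgo1, Sgo2a, Ndc80, Spc25, Ncapg and Smc2. Of the 10 left, Wee1, Pkmyt1, Spc24, Cenpi, Cenpk, Cenpn, Melk and Mybl2 passed in no fit, Fzr1 passed as lower in 3 of 19 alternatives and Mad2l1 as higher in 1.

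Genes that work beside these were read from lists of the same pathway. Of 30 other G2/M genes 20 fell (66.7%) and 0 were higher in edgeR, where 12.8% of all tested genes were lower and 13.2% higher. DESeq2 and limma-voom gave the same counts for this list. Its median log2 fold change was -0.54, close to that of the members. At an unadjusted p under 0.05 in edgeR 22 of the 30 were lower and 0 higher. All 14125 tested genes then gave 2671 lower and 2746 higher. Cit, the citron kinase of cytokinesis, had 17.7, 19.8 and 19.6 CPM with pyrotinib and 44.6, 45.1 and 39.1 CPM with DMSO (log2 fold change -1.17, adjusted p = 1.9e-06), and Troap, a spindle assembly protein, 10.4, 8.42 and 7.41 CPM with pyrotinib against 18.5, 20.9 and 21.6 CPM with DMSO (log2 fold change -1.22, adjusted p = 3e-05). Among 34 other kinetochore and centromere genes 6 fell (17.6%) and 1 rose, where 12.8% of all tested genes were lower and 13.2% higher. The list's median log2 fold change was -0.16, with 24 values negative and 10 positive. Cdca2 fell 2.21-fold and Hjurp, which loads CENP-A onto centromeres, 1.48-fold. The gene that rose was Ska2, a subunit of the spindle-binding SKA complex (log2 fold change 0.39), and after the GC correction it did not pass. After the GC correction 11 of the 34 were lower and 0 higher, where 14.5% of all tested genes were lower.

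Most core subunits of the APC/C, and most cohesin genes, did not pass. Of 14 APC/C core subunits 0 were lower and 1 higher, Anapc10 (log2 fold change 0.52, adjusted p = 0.04), which did not pass after the GC correction; Cdc26 gave 0.32 (adjusted p = 0.06). Of 15 genes of cohesin, its regulators and condensin II, 0 were lower and 3 rose: Stag1 (log2 fold change 0.59), Stag2 (0.42) and Pds5b (0.34). After the GC correction 4 of the 15 were lower and 1, Stag1, higher, where 14.5% of all tested genes were lower and 1910 of 14125 higher. Stag2 and Pds5b then did not pass, and the 4 lower genes had not passed before. Of 12 genes of the DREAM complex and E2F repressors none passed in edgeR; the smallest adjusted p were those of Rbl1 (0.07) and Tfdp1 (0.11). At an unadjusted p under 0.05, edgeR had 0 lower and 3 higher of the APC/C subunits, 1 and 3 of the cohesin list and 0 and 2 of the DREAM list. At that threshold 2671 of all 14125 tested genes were lower and 2746 higher. DESeq2 and limma-voom gave the same counts of calls as edgeR in these 3 lists. At the adjusted threshold 12.8% of all tested genes were lower and 13.2% higher in edgeR.

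Genes of the preceding phase gave mixed calls. Of 30 G1/S and replication genes 29 had enough reads to be tested, 7 fell and 2 rose, with a median log2 fold change of -0.17. Ung, which removes uracil from DNA, had 15.7, 24.9 and 18.1 CPM with pyrotinib and 33.0, 44.4 and 37.2 CPM with DMSO (log2 fold change -0.96, adjusted p = 0.00025), and Chaf1b, a histone chaperone at the fork, fell 1.36-fold. Among those that rose was Rrm1, a subunit of ribonucleotide reductase (log2 fold change 0.33). Among all tested genes 12.8% were lower and 13.2% higher. The difference from the mitotic regulators was not tested.

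**Figure D5:**
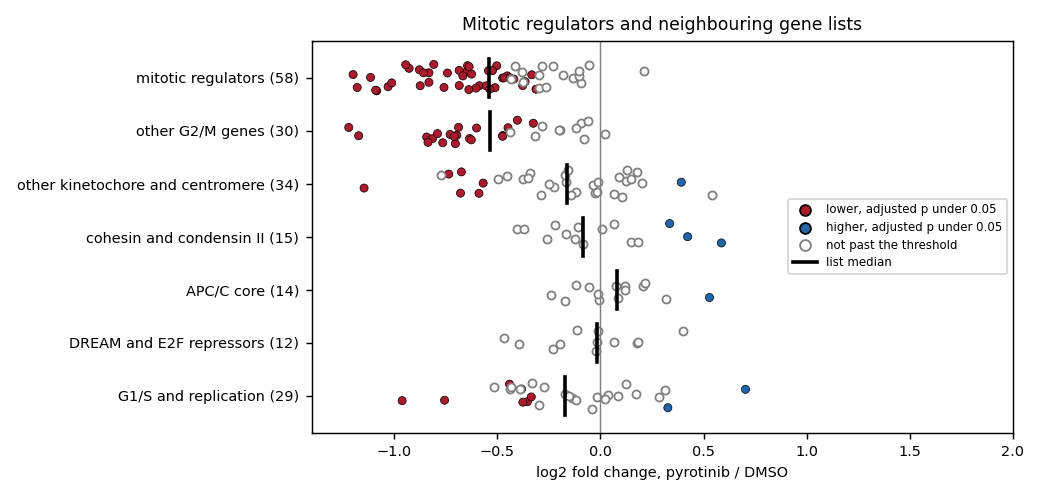
Log2 fold change (pyrotinib over DMSO) of each tested gene of the mitotic regulators and 6 neighbouring lists, with the number of genes tested in brackets; red and blue points pass as lower and higher, and black bars are medians. The medians of the mitotic regulators (-0.54) and other G2/M genes (-0.54) lie left of those of the 5 other lists, which run from -0.17 to 0.08.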

How the data were processed

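Poly(A) RNA was sequenced from 3 pyrotinib and 3 DMSO libraries of TM3 cells. The authors deposited whole-number counts of reads per gene and, in a second table, FPKM per gene; how its library size was set was not given in the sources. Per the submitters' processing notes, the tools were HISAT2 2.0.5, fastp, DESeq2 1.20.0 and featureCounts 1.5.0-p3, and the build was mm10. The strand setting was not given in the sources. Of the 58 members, 17 share exon bases with a gene on the opposite strand in GENCODE M21, up to 35.0% of the bases, and without a known strand setting such reads cannot be told apart. The opposite gene had more reads than the member for Ube2s, Sgo2a, Ncapg, Pkmyt1 (Paqr4, 2854 to 1296), Cdc20 (Elovl1, 3952 to 1889) and Cenpk (Ppwd1, 2477 to 459).

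The counts went into edgeR 4.0.16 (R 4.3.3): filterByExpr (minimum count 10, minimum total 15), TMM, and the two-sided quasi-likelihood F-test on group, Benjamini-Hochberg adjusted over 14125 genes at 0.05. The fit was tested on simulated data. Standard errors are approximate (|log2 fold change| over the root of F). DESeq2 1.42.0, limma 3.58.1 on voom values or on log2(FPKM + 1) or log2(FPKM + 0.1), other scalings and filters, thinning, a replicate block, leaving out each library, a lowess correction (span 0.3) for GC content of the longest GENCODE M21 transcript, and pyrotinib replicate 2 alone were alternatives. A gene is named where its adjusted p is among the 2 smallest of its role or list, or where a member did not pass; other members, and Ska2, Stag1, Stag2, Pds5b and Rrm1, were named after their values were seen, and 1 gene of a list is not reported here. The members and lists were chosen with earlier results of these data known. No pair of libraries of a group was identical (chi-square per degree of freedom 4.18 to 16.5).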

Additional observations from a re-analysis of the deposited data

How the results depend on the processing

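The fall of the mitotic regulators kept its direction in all 19 alternatives. The count of members lower was 36 to 48 in 18 of them and 20 with unfiltered FPKM values (pseudocount 1), where 561 genes were called in all. Without each library in turn it was 36 to 42, with 0 to 1 members higher, a median of -0.57 to -0.49 and 1956 to 5226 of all genes called; the lowest of these totals was without DMSO replicate 2, and that without pyrotinib replicate 3 was 2164. The single member called higher was Mad2l1, without pyrotinib replicate 2. With pyrotinib replicate 2 alone the median was -0.71 and 1055 genes were called. Filtered FPKM values with pseudocount 1 and 0.1 gave 2179 and 2185 genes called. Of the 42 members, 18 passed in all 19 alternatives and 33 in all but unfiltered FPKM. Log2 fold changes near 0 turned for Mad2l1 (-0.0015 after the GC correction, -0.083 in pyrotinib replicate 2 alone), Cenpk (-0.26 to 0.15 without 1 library) and Mybl2 (-0.21 to 0.012 without 1 library, 0.029 after the GC correction), and none of these values passed. The causes of these changes were not tested.

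Whether the replicate numbers pair the samples is not in the labels. Same-numbered libraries had correlations of 0.0050, 0.08 and 0.02 between their deviations from the group means. Differently numbered libraries had correlations of -0.07 to 0.06. Deviations from a mean of 3 libraries are bound to each other, so these values do not settle the pairing. With a replicate block 47 members were lower, 0 higher, the median was -0.54 and 4265 genes were called.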
